A study of Triticum aestivum with 9 samples.

Results

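Transcripts that were most abundant at the middle of 3 temperatures were described in filling grains of common wheat (Triticum aestivum cv. Chinese Spring). They were chosen by their measured values: a mean of at least 3 FPKM (fragments per kilobase of transcript, scaled to the mapped fragments of the library) at 30 °C, a mean at 30 °C of at least 1.5 times that at 20 °C and at least 1.5 times that at 40 °C, and every plant at 30 °C above every plant at 20 and 40 °C. The rule selected 252 transcripts from 252 genes, of 133744 annotated transcripts from 107891 genes. Of the 24475 transcripts with at least 3 FPKM at 30 °C, it selected 1.03%.

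The plants had been moved to growth chambers 12 days after flowering and kept at 20 °C for 3 days. One group then stayed at 20 °C as the control, and the other 2 groups were shifted to incubators at 30 and 40 °C for 1 h in the light. Main-stem grains of 3 independent plants per temperature were sequenced, giving 9 libraries of 15778561 to 19497182 estimated fragments. All 3 groups were of 1 cultivar, 1 stage and 1 exposure time, with no recovery or longer exposure analysed here. The extraction text of the labels names ovarian granulosa cells, whereas the tissue, the source and the growth text of every sample give wheat grains. The tissue was not checked against marker genes, because no member identifier could be paired with a gene name: 0 of the 252 member genes were found in the RefSeq gene table used here (assembly IWGSC CS RefSeq v2.1). Members are therefore given by their identifiers, and no function is stated for them.

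Filling wheat grains lay down starch and storage proteins in the endosperm. On heating, plant cells start transcribing genes for heat shock proteins within minutes, through heat shock transcription factors, while many other transcripts decline. Bread wheat is hexaploid, so that most genes occur as related copies on the A, B and D subgenomes, and the letter after the chromosome number in an identifier gives the subgenome. A transcript level is the balance of synthesis and decay, and in whole grains fewer cells of a type and less RNA per cell cannot be told apart.

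Under the limits of the rule, being highest at 30 °C was less frequent than being highest at 20 or at 40 °C. By the highest mean alone it was not rare. Of 27856 transcripts with a mean of at least 3 FPKM at any temperature, 37.03% had their highest mean at 30 °C. With the same limits applied to each temperature, 1349 transcripts were highest at 20 °C (5.54% of 24336 with at least 3 FPKM there), 252 were highest at 30 °C, and 1851 were highest at 40 °C (7.92% of 23371). The mirror shape, lowest at 30 °C with at least 3 FPKM at both other temperatures, was met by 70 transcripts (0.338% of 20723). The order of these 4 counts was the same in deposited TPM (abundance scaled to the same total in every library), with 1146, 267, 1766 and 61 transcripts. It was also the same after dividing FPKM by the TMM factor of each library (edgeR's scaling, which matches libraries on the bulk of their transcripts), with 1223, 146, 2430 and 110 transcripts.

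**Figure D1:**
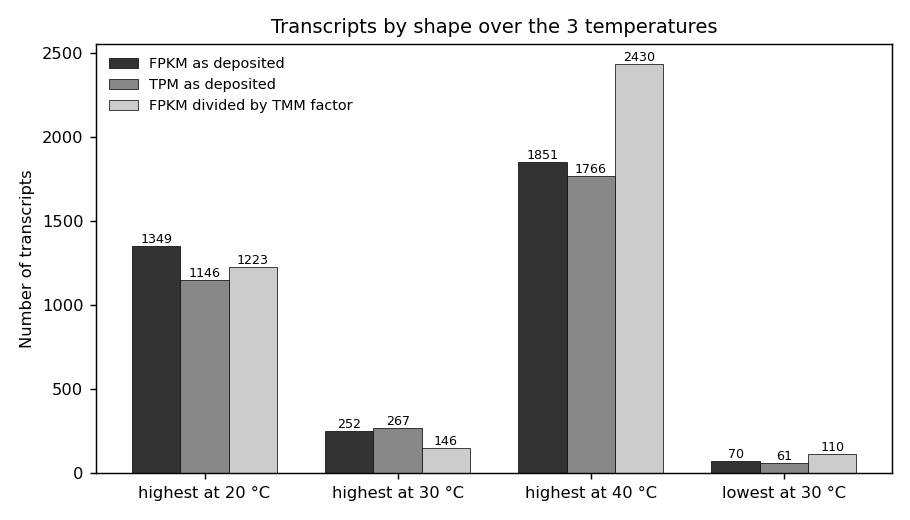
Number of transcripts (vertical axis) whose level was highest at 20 °C, highest at 30 °C, highest at 40 °C or lowest at 30 °C under the same limits, with 1 bar for deposited FPKM, 1 for deposited TPM and 1 for FPKM divided by TMM factors. In each scaling the transcripts highest at 30 °C (252, 267 and 146) were fewer than those highest at 20 °C or at 40 °C.

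The number selected depended on the scaling and on 1 library. With TMM-scaled FPKM, 144 of the 252 transcripts were selected again and 108 were not. For 74 of these 108 the ratio of 30 to 40 °C fell below 1.5, and for 17 the ratio of 30 to 20 °C did. The TMM factor of 40 °C replicate 3 was 0.8298, against 0.9786 to 1.0684 in the other libraries. The 100 most abundant transcripts of that library held 38.6% of its fragments, against 30.2 and 30.3% in the other plants at 40 °C, and they held 37.0 to 41.6% in the plants at 20 °C, whose TMM factors were 0.9786 to 1.062. Leaving out 30 °C replicate 1 raised the number selected to 1129, of which 226 were among the 252, and leaving out any other library gave 220 to 377. The 903 transcripts added without it were picked because they failed the rule when it was included, so their order of plants is fixed by that choice and is a description only. Their median FPKM was 4.82, 7.06 and 6.69 in the plants at 20 °C, 7.11, 11.46 and 11.91 at 30 °C, and 7.64, 7.54 and 4.70 at 40 °C. Without 30 °C replicate 1 the mirror shape also grew, to 208 transcripts, while 1852 were highest at 20 °C and 1879 at 40 °C. That library had correlations of 0.947 and 0.944 with the other plants at 30 °C, which had 0.969 with each other (Pearson's r of log2(FPKM + 1) across 24475 transcripts, which are not independent). It was not alone in this. At 20 °C, replicate 1 had 0.951 and 0.948, and the other plants had 0.965 with each other. At 40 °C, replicate 3 had 0.954 and 0.938, and the other plants had 0.964. Leaving out these libraries gave 237 and 220 transcripts. The part of any library in the selection beyond these counts was not tested.

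The members were mostly of low to moderate abundance. Their mean at 30 °C ranged from 3.04 to 3691 FPKM with a median of 8.15 FPKM, and the median of their means was 4.02 FPKM at 20 °C and 3.82 FPKM at 40 °C. Across all 24475 transcripts with at least 3 FPKM at 30 °C, the medians were 7.10, 7.57 and 7.02 FPKM at 20, 30 and 40 °C. By their mean at 30 °C, 144 members lay from 3 to below 10 FPKM, 76 from 10 to below 50 FPKM, 19 from 50 to below 100 FPKM and 13 at 100 FPKM or more. The median ratio of means was 1.86 for 30 over 20 °C and 1.85 for 30 over 40 °C. Both ratios reached 2 in 65 members and 3 in 21 members. Of the 65, 52 were also selected after TMM scaling.

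Together the members made up 0.491 to 1.42% of the transcript pool of a plant. Their summed level was 4913, 8522 and 6752 TPM in the plants at 20 °C, 11152, 13542 and 14167 TPM at 30 °C, and 8488, 7678 and 6148 TPM at 40 °C. The sum at 30 °C was thus the highest in every plant, as the selection fixes, and the sums at 20 and 40 °C overlapped. A single transcript, TraesCS1D02G001000.1, gave 860, 2287 and 1737 TPM of it at 20 °C, 2678, 3938 and 3881 TPM at 30 °C, and 1951, 2235 and 1442 TPM at 40 °C.

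The 10 most abundant members ranged over more than an order of magnitude. TraesCS1D02G001000.1 had 929, 2489 and 1862 FPKM at 20 °C, 2852, 4205 and 4016 FPKM at 30 °C, and 2014, 2397 and 1585 FPKM at 40 °C. Its plants at 20 °C were spread widely, with replicate 2 above all 3 plants at 40 °C. TraesCS6B02G086500.1 averaged 1291 ± 230.3 FPKM at 20 °C, 2001 ± 338 FPKM at 30 °C and 1263 ± 159 FPKM at 40 °C (SD, n = 3 each). TraesCS1A02G033501.1 averaged 856 ± 274, 1480 ± 224 and 969.6 ± 98.6 FPKM at 20, 30 and 40 °C (SD, n = 3 each). After TMM scaling TraesCS1D02G001000.1 stayed within the limits, whereas TraesCS6B02G086500.1 and TraesCS1A02G033501.1 did not, because their ratios were close to 1.5 (1.55 and 1.58 for the first, 1.73 and 1.53 for the second).

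Among these 10 were transcripts on each of the 3 group 5 chromosomes with similar gene numbers. TraesCS5A02G417800.1 had 47.1, 178 and 66.3 FPKM at 20 °C, 289, 242 and 287 FPKM at 30 °C, and 195, 144 and 82.0 FPKM at 40 °C. TraesCS5B02G419900.1 had 212, 426 and 295 FPKM at 20 °C, 600.2, 493 and 475 FPKM at 30 °C, and 380.4, 322 and 247 FPKM at 40 °C. TraesCS5D02G425800.1 had 232, 433 and 268 FPKM at 20 °C, 634, 587 and 782 FPKM at 30 °C, and 520.4, 371 and 341 FPKM at 40 °C. All 3 had the same ranking of plants within 20 °C and within 40 °C, with replicate 2 highest at 20 °C and replicate 3 lowest at 40 °C. The files do not say whether the 3 genes are copies of one another. The remaining members of the 10, TraesCS1B02G172400.1, TraesCS5A02G014400.2, TraesCS4A02G392600.1 and TraesCS7D02G088300.1, averaged 480, 236, 174 and 172 FPKM at 30 °C.

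**Figure D2:**
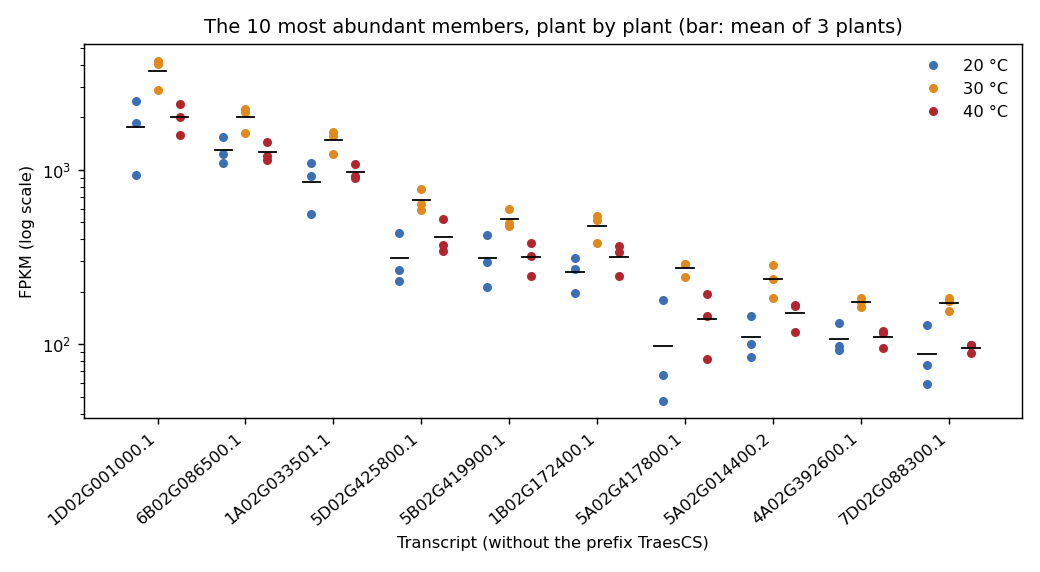
FPKM (log scale) of the 10 most abundant members in every plant, with points for plants at 20 °C (left), 30 °C (middle) and 40 °C (right) of each transcript and a black bar for the mean of 3 plants. The 3 plants at 30 °C lie above all others in each transcript, as the selection requires, and the plants at 20 and 40 °C overlap in all 10.

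Members with the largest ratios were often supported by few fragments. Of the 10 with the largest smaller ratio, 2 are given first that had over 500 fragments at 30 °C and whole estimated counts (within 0.001 in all 9 libraries). TraesCS3A02G421000.1 had 11.1, 21.6 and 7.80 FPKM at 20 °C, 55.6, 47.4 and 63.0 FPKM at 30 °C, and 19.3, 15.2 and 8.12 FPKM at 40 °C, from 387, 1649 and 439 fragments summed over the plants of each temperature. Its level at 30 °C was 4.10 times that at 20 °C and 3.89 times that at 40 °C. TraesCS4A02G034500.1 had 1.67, 2.69 and 1.62 FPKM at 20 °C, 6.94, 6.44 and 11.1 FPKM at 30 °C, and 2.43, 1.42 and 2.14 FPKM at 40 °C, from 134, 575 and 142 fragments. Both ratios were 4.1 for this transcript, and for both transcripts the plants at 20 and 40 °C overlapped while those at 30 °C were well apart.

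Other members of large ratio varied more among plants. TraesCS7D02G036100.2, 1 of 4 transcripts of its gene and with fractional counts, had 0, 2.76 and 0.46 FPKM at 20 °C, 5.77, 6.33 and 2.93 FPKM at 30 °C, and 2.68, 0 and 0 FPKM at 40 °C, from 125, 600.1 and 104 fragments. Its lowest plant at 30 °C was only just above the highest plants at 20 and 40 °C. TraesCS3A02G517100.1 had 8.41, 2.36 and 1.92 FPKM at 20 °C, 18.9, 27.8 and 8.59 FPKM at 30 °C, and 1.18, 3.18 and 3.09 FPKM at 40 °C. Its lowest plant at 30 °C exceeded its highest at 20 °C by little, and it was not selected after TMM scaling. TraesCS3A02G483100.1 had 3.70, 1.20 and 7.09 FPKM at 30 °C, with at most 0.90 FPKM in any other plant. TraesCS3D02G416700.1 had 1.14, 2.10 and 0.46 FPKM at 20 °C, 7.42, 8.82 and 10.0 FPKM at 30 °C, and 1.14, 1.35 and 2.65 FPKM at 40 °C. The neighbouring gene of the last, TraesCS3D02G416500, also held a member.

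At the low end, counting error set the limit. TraesCS7A02G065100.1 rested on 1, 16 and 1 fragments at 20, 30 and 40 °C and TraesCS1B02G136900.1 on 7.19, 35.1 and 5.13 fragments. TraesCS1B02G460800.1 and TraesCS7A02G385200.1, both 201 bases long, had no fragment at 20 °C and 8 and 6 fragments at 30 °C. A count of 0 allows up to 3 fragments per library, so no fold change is given for these. In all, 12 members had under 50 fragments summed over the 3 plants at 30 °C, the median being 466 fragments.

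At the edges of the rule, members and non-members had nearly the same values. Just inside the ratio limit were TraesCS3B02G139700.2, TraesCS2D02G364800.1 and TraesCS2D02G097200.1, with a smaller ratio of 1.503 to 1.505. Just outside were TraesCS3A02G238100.1, TraesCS1A02G396700.1 and TraesCS5D02G449600.1, with 1.495 to 1.498. The members with the lowest level were TraesCS5B02G536000.2, TraesCS2D02G481600.1 and TraesCS7B02G240200.1 at 3.04 to 3.07 FPKM, and TraesCSU02G146600.1, TraesCS2B02G350900.1 and TraesCS6A02G166000.1 missed the limit at 2.99, 2.96 and 2.92 FPKM. A further 860 transcripts with at least 3 FPKM at 30 °C had non-overlapping plants but a ratio below 1.5, and 586 met all but the level.

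The tests of the contrasts that the rule used are given as a description only. By edgeR's quasi-likelihood test with Benjamini-Hochberg adjustment (adjusted p under 0.05 and a change of over 2-fold), 37 of the 252 members passed as higher at 30 than at 20 °C, where 2.58% of 45956 transcripts passed in that direction. At 30 over 40 °C, 28 members passed, where 0.533% of 44638 transcripts passed in that direction. With the replicate number as a block, 11 rather than 28 members passed at 30 over 40 °C, and with DESeq2 60 rather than 37 passed at 30 over 20 °C. Both tests were passed by 9 members, of 13 transcripts in all. Most members therefore met the selection by the order and ratio of their means without passing either test. The tests asked for a larger change than the rule did, so many members could not pass them. A ratio of means of at least 2 was reached by 101 members for 30 over 20 °C and by 93 for 30 over 40 °C. Without the 2-fold limit, 82 members passed edgeR's test as higher at 30 than at 20 °C, and 46 at 30 over 40 °C.

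Whether members differed between 40 and 20 °C is not a contrast of the rule, although the rule bounds it, since a transcript much higher at 40 than at 20 °C could be a member only if its level at 30 °C was higher still. Of 247 members tested, 5 passed as higher and 1 as lower at 40 °C (2.02 and 0.4%). Of all 46250 transcripts tested, 7.54% passed as higher and 4.54% as lower. Because of the bound, nothing is read from the shares of the members. Without the 2-fold limit, 8 members passed as higher and 1 as lower, beside 10.9 and 7.69% of all transcripts. The calls changed with the libraries used. Without 20 °C replicate 1, 3 members were called, of which 1 was among the 6. Without 20 °C replicate 3, 0 were called (14 members at an unadjusted p under 0.05 in that edgeR fit). Without 40 °C replicate 1, 2 were called and without 40 °C replicate 2, 3 were called, all among the 6. Without 20 °C replicate 2, 6 were called and without 40 °C replicate 3, 5 were called, with 3 of the 6 in each. The replicate block kept 1 of the 6, and with all 6 libraries DESeq2 called 5 of them. The plants at 40 and 20 °C overlapped in 233 of the 252 members. In 15 members every plant at 40 °C was above every plant at 20 °C, and in 4 every plant was below, where such separation in FPKM was found in 14.2 and 26.0% of all transcripts tested.

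With TMM scaling the members lay slightly above 0 in this contrast, and with library size alone their median was close to 0. Their median log2 fold change, 40 over 20 °C, was 0.169 with quartiles of 0.03 and 0.356, and 190 of 247 (76.9%) were above 0. Over all transcripts tested the median was 0.004 with quartiles of -0.439 and 0.431, and 50.2% were above 0. Scaling by library size alone moved the median over all transcripts by -0.142, and gave the members a median of 0.031 with 139 of 247 above 0. A change of under 1.5-fold was fitted for 208 members (84.2%), beside 61.1% of all transcripts, in a set whose rule holds both levels below that at 30 °C.

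**Figure D3:**
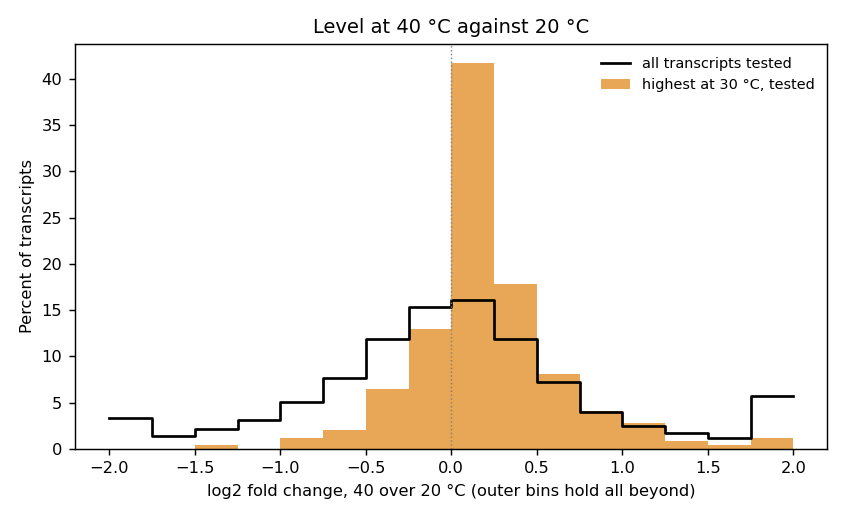
Percent of transcripts (vertical axis) by log2 fold change, 40 over 20 °C (horizontal axis, bins of 0.25, the outer bins holding all values beyond), as filled bars for the 247 members tested and as a black line for all 46250 transcripts tested. The members gather around a median of 0.169, and the line for all transcripts is wider, with a median of 0.004.

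The members that passed as higher at 40 than at 20 °C had their mean at 40 °C between those at 20 and 30 °C. The selection fixes this, since it holds both other means below that at 30 °C. TraesCS5A02G025200.1 had 20.6, 19.6 and 17.5 FPKM at 20 °C, 52.0, 50.4 and 54.6 FPKM at 30 °C, and 33.9, 33.4 and 36.9 FPKM at 40 °C. The 3 groups did not overlap and varied little within a temperature, and its log2 fold change, 40 over 20 °C, was 1.00 (SE 0.158, edgeR adjusted p = 0.0051). It sat at the 2-fold limit and fell below it with DESeq2, with library size alone, with 1 model over 9 samples, with the replicate block and without replicate 3 of 20 or of 40 °C, at adjusted p of 1.9e-06 to 0.031.

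TraesCS4A02G061900.1 had 9.05, 15.3 and 11.5 FPKM at 20 °C, 45.1, 36.4 and 36.7 FPKM at 30 °C, and 34.8, 19.2 and 17.3 FPKM at 40 °C. Its log2 fold change was 1.12 (SE 0.277, edgeR adjusted p = 0.030), and replicate 1 was the highest plant at 40 °C by far. TraesCS1B02G218700.1 averaged 3.80 ± 1.90, 14.7 ± 4.13 and 9.37 ± 0.793 FPKM at 20, 30 and 40 °C (SD, n = 3 each), with a log2 fold change of 1.44 (SE 0.327, edgeR adjusted p = 0.023). TraesCSU02G169600.1, with whole counts, averaged 0.633 ± 0.283, 5.42 ± 1.06 and 2.46 ± 1.31 FPKM (SD, n = 3 each), with a log2 fold change of 2.05 (SE 0.504, edgeR adjusted p = 0.030). The member that passed as lower was TraesCS3D02G382600.1. It had 3.95, 2.60 and 1.59 FPKM at 40 °C, against 6.28, 9.21 and 7.10 FPKM at 20 °C, and 11.5, 10.2 and 14.8 FPKM at 30 °C. Its log2 fold change, 40 over 20 °C, was -1.34 (SE 0.369, edgeR adjusted p = 0.043). All the transcripts of this paragraph lost the call without 20 °C replicate 1 (edgeR adjusted p of 0.061 to 0.092). The same held without 20 °C replicate 3 (edgeR adjusted p of 0.078 to 0.1). All kept it with DESeq2 and with 1 model over 9 samples. In each of the other alternatives some kept the call and some lost it.

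For the most abundant members the level at 20 °C replicate 2 mattered. TraesCS5A02G417800.1 had a log2 fold change, 40 over 20 °C, of 0.64 (SE 0.491, edgeR adjusted p = 0.39), and of 1.42 (edgeR adjusted p = 0.036) without 20 °C replicate 2. That plant was the highest at 20 °C in 143 of the 252 members (56.8%), beside 32.4% of all transcripts with at least 3 FPKM at 30 °C. At 40 °C, replicate 3 was the lowest plant in 145 members (57.5%), beside 62.2% of all. The median coefficient of variation of the members among plants was 23.7% at 20 °C, 16.8% at 30 °C and 25.5% at 40 °C, beside 13.8, 14.3 and 17.7% for all such transcripts. These orders and spreads come from the values that the rule used. The members also had lower median levels at 20 and 40 °C than all such transcripts, so the comparison is a description only.

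Most members were the only annotated transcript of their gene, and for the others the gene did not always follow. One transcript was annotated for 184 of the 252 genes (73.0%, beside 73.0% of all transcripts with at least 3 FPKM at 30 °C). Of the 68 genes with more, 27 met the same rule when FPKM was summed over their transcripts. The highest summed mean was at 30 °C in 61 of the 68, at 40 °C in 4 and at 20 °C in 3. The member carried under 50% of its gene's abundance at 30 °C in 14 of the 68. Of 105 other transcripts of these genes, 33 reached a mean of 3 FPKM at any temperature, with the highest mean at 20 °C in 13, at 30 °C in 13 and at 40 °C in 7. RSEM divides fragments that match several transcripts, of 1 gene or of different genes, by estimation. Of the 184 members that were the only transcript of their gene, 166 had fractional counts and 18 had whole counts, so that division touched most members, among them the 3 on the group 5 chromosomes described above and those in the runs of neighbouring genes described below.

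In 3 genes, chosen after their values were seen, a member fell back at 40 °C while another transcript of the same gene was far higher there. TraesCS3B02G293100.1 had 0.85, 0.84 and 0.48 FPKM at 20 °C, 6.74, 7.56 and 6.24 FPKM at 30 °C, and 3.22, 1.39 and 1.79 FPKM at 40 °C, with a log2 fold change, 40 over 20 °C, of 1.67 (SE 0.431, edgeR adjusted p = 0.035). It kept that call with DESeq2, with library size alone, with 1 model over 9 samples and without 40 °C replicate 2. In the other alternatives it lost the call, at edgeR adjusted p of 0.063 to 0.11. TraesCS3B02G293100.2 had 0.25, 1.47 and 2.0 FPKM at 20 °C, 9.61, 9.20 and 6.78 FPKM at 30 °C, and 25.7, 29.5 and 26.2 FPKM at 40 °C, a log2 fold change of 4.62 (SE 0.464, edgeR adjusted p = 0.00059). TraesCS3B02G293100.3 averaged 2.87 ± 0.0777, 12.5 ± 2.57 and 36.9 ± 8.03 FPKM (SD, n = 3 each), a log2 fold change of 3.80 (SE 0.154, edgeR adjusted p = 4.9e-06). The gene as a whole thus increased with each step, with a summed 7.67 ± 0.228, 33.5 ± 1.43 and 74.2 ± 8.86 FPKM at 20, 30 and 40 °C (SD, n = 3 each).

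The other 2 genes had the same form. TraesCS7A02G553800.1 had 3.44, 2.13 and 2.88 FPKM at 20 °C, 12.9, 10.2 and 7.59 FPKM at 30 °C, and 6.65, 4.76 and 3.96 FPKM at 40 °C, whereas TraesCS7A02G553800.3 averaged 0.797 ± 0.250, 4.06 ± 0.924 and 29.98 ± 2.09 FPKM (SD, n = 3 each). TraesCS6B02G249700.1 averaged 1.19 ± 0.372, 3.23 ± 0.913 and 1.53 ± 0.0917 FPKM, and TraesCS6B02G249700.2 averaged 6.61, 13.3 and 29.0 FPKM. In TraesCS4B02G074100 and TraesCS4B02G307800 the gene sum was highest at 20 °C: the members averaged 1.82, 4.04 and 1.10 FPKM and 2.45, 5.76 and 2.88 FPKM at 20, 30 and 40 °C, within gene sums of 41.1, 39.5 and 23.8 FPKM and 17.0, 16.0 and 15.8 FPKM.

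**Figure D4:**
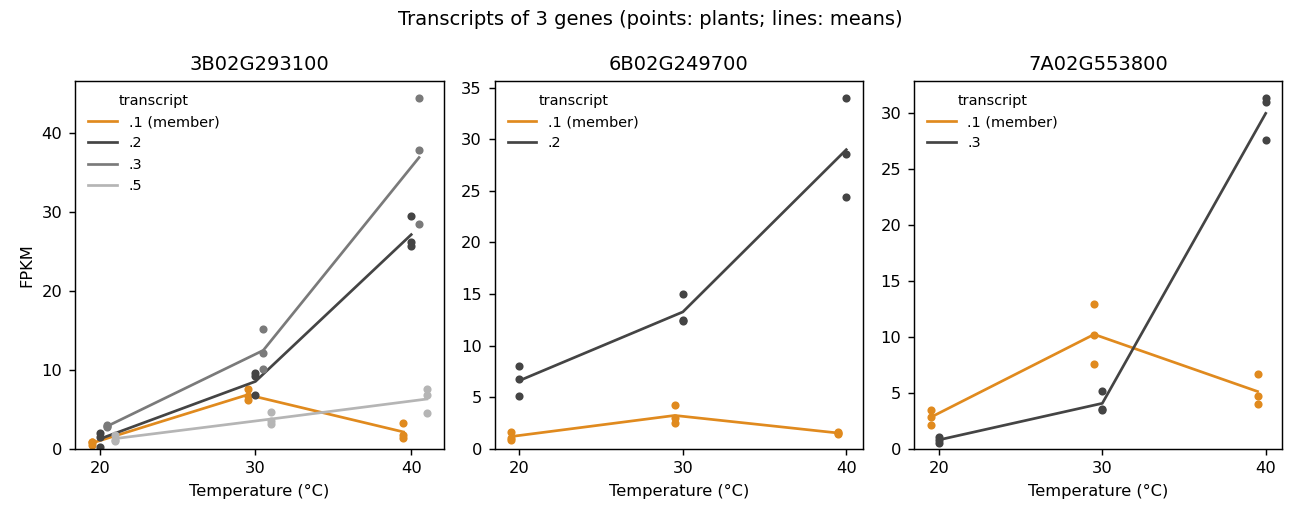
FPKM (vertical axis) at 20, 30 and 40 °C of the transcripts reaching a mean of 3 FPKM in 3 genes, with points for plants and lines for means, the member in orange and the other transcripts in grey. In each gene the member is highest at 30 °C, while the leading other transcript reaches 27.1 and 36.9, 29.0 or 29.98 FPKM at 40 °C.

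Members were spread over all 3 subgenomes and all 21 chromosomes. Subgenome A held 85 (33.7%, beside 32.7% of all transcripts with at least 3 FPKM at 30 °C), subgenome B held 71 (28.2%, beside 32.6%) and subgenome D held 84 (33.3%, beside 33.2%). Genes not placed on a chromosome held 12 (4.76%, beside 1.54%), so that 3.18% of the unplaced transcripts met the rule. By chromosome, 2D and 7A held 20 members each, 1.47 and 1.68% of their transcripts at this level, and 4B and 6D held 6 each, 0.614 and 0.643%. No test was made of these shares. The members' median length was 1323.5 bases (201 to 4467 bases), beside 1465 bases for all such transcripts.

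A few members came from neighbouring genes, judged by the gene numbers in the identifiers, which run along the chromosome. There were 11 groups of at least 2 member genes no more than 500 gene numbers apart, holding 24 members, and 2 of these groups held 3 members. The group of TraesCSU02G228000.1 and TraesCSU02G228100.1 is of genes not placed on a chromosome, so their numbers do not show that they are neighbours. Gene numbers are not counts of genes: TraesCS7D02G087500, TraesCS7D02G087600 and TraesCS7D02G087700 follow each other, so the limit spans only a few genes there. Groups were not counted over all transcripts at this level, so nothing is read from their number. On chromosome 7D, TraesCS7D02G088300.1 had 59.5, 129.6 and 76.5 FPKM at 20 °C, 155, 177 and 184 FPKM at 30 °C, and 89.1, 98.9 and 98.95 FPKM at 40 °C. TraesCS7D02G088500.1 averaged 16.2 ± 5.80, 39.1 ± 4.98 and 20.6 ± 2.59 FPKM, and TraesCS7D02G088700.1 averaged 4.54 ± 0.630, 19.3 ± 3.29 and 5.82 ± 1.96 FPKM (SD, n = 3 each). A pair of members, TraesCS7D02G087500.1 and TraesCS7D02G087700.1, lay just before them. From TraesCS7D02G087500 to TraesCS7D02G088800, 11 of 15 transcripts reached 3 FPKM at any temperature, and 5 of the 6 that were not members had their highest mean at 30 °C, the exception being TraesCS7D02G087500.2. Of all transcripts that reached this level and were not members, 36.45% had their highest mean at 30 °C. Among those that missed the rule, TraesCS7D02G088000.1 averaged 22.7 ± 6.01, 67.6 ± 11.3 and 50.9 ± 4.50 FPKM (SD, n = 3 each) and rose at 40 over 20 °C by a log2 fold change of 1.33 (SE 0.216, edgeR adjusted p = 0.0059).

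The run on chromosome 4A was TraesCS4A02G392200.1, TraesCS4A02G392500.1 and TraesCS4A02G392600.1. TraesCS4A02G392500.1 had 36.95, 40.2 and 34.2 FPKM at 20 °C, 66.4, 76.0 and 81.8 FPKM at 30 °C, and 33.8, 32.0 and 43.9 FPKM at 40 °C, and TraesCS4A02G392600.1 had 92.6, 132 and 97.9 FPKM at 20 °C, 165, 174 and 184 FPKM at 30 °C, and 95.4, 116 and 120 FPKM at 40 °C. TraesCS4A02G392200.1 was less even, with 51.5, 33.7 and 60.8 FPKM at 30 °C, replicate 2 lying only just above the highest plant at 20 °C (33.6 FPKM). The 4 transcripts from TraesCS4A02G392000 to TraesCS4A02G392600 that were not members also had their highest mean at 30 °C, and the 30 over 20 °C ratios of all 7 were 1.12 to 2.01. On chromosome 7A a pair of members, TraesCS7A02G092700.1 and TraesCS7A02G092800.1, averaged 4.96, 10.7 and 5.22 FPKM and 6.73, 10.8 and 5.63 FPKM at 20, 30 and 40 °C. The 3 others with at least 3 FPKM at any temperature up to TraesCS7A02G093300 also had their highest mean at 30 °C, and the ratios of all 5 were 1.34 to 2.15. No test was made of these counts, and the stretches were found through their members. No rule was set for the ends of the stretches: those on 7D and 7A went on past the last member, and that on 4A began before the first. The counts are therefore a description only. The 7A stretch was chosen after its values were seen. As background, the long arm of wheat chromosome 4A carries a segment that came from 7B, but whether the 3 stretches are copies of one another was not tested. After TMM scaling TraesCS4A02G392500.1, the 3 members of the 7D run and the 7A pair were selected again. TraesCS4A02G392200.1, TraesCS4A02G392600.1 and the 7D pair, TraesCS7D02G087500.1 and TraesCS7D02G087700.1, were not. None of the members in these stretches passed the test at 40 over 20 °C.

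**Figure D5:**
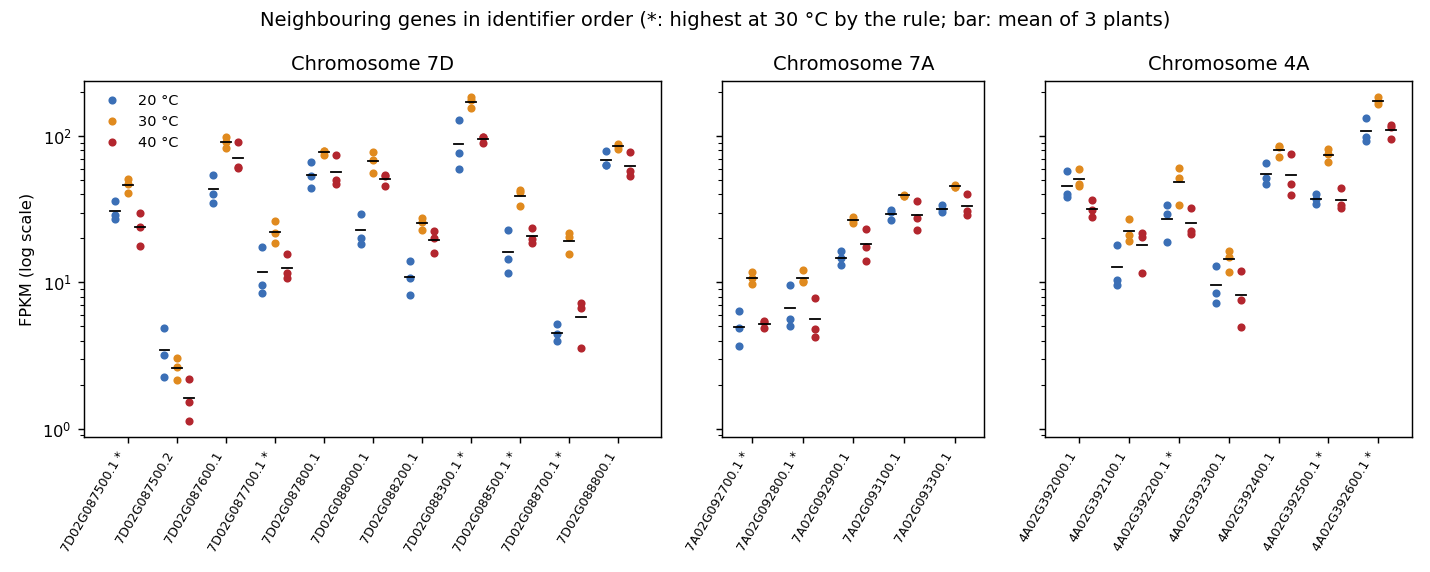
FPKM (log scale) in every plant for the transcripts with a mean of at least 3 FPKM at any temperature in 3 stretches of neighbouring genes, in identifier order, with points for plants at 20 °C (left), 30 °C (middle) and 40 °C (right) and a black bar for the mean, members being marked by an asterisk. The members are highest at 30 °C as the selection requires, and among the others the mean at 30 °C is the highest in 5 of 6 transcripts on 7D, in 3 of 3 on 7A and in 4 of 4 on 4A, beside 36.45% of all such transcripts that are not members. No rule was set for the ends of the stretches, so these counts are a description only.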

How the data were processed

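Per the study's methods, adapters and low-quality reads were removed with Trimmomatic, and paired-end reads of grains from 3 independent plants per temperature were assigned to transcripts of the IWGSC wheat genome and quantified with RSEM. The aligner is not given in the sources used here. The deposited values are estimated counts per transcript, TPM and FPKM, all computed with RSEM by the authors, and the percent of a gene's abundance carried by each transcript, made by the authors per library. The submitters' processing notes name edgeR 3.24.3.

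Members and lists were chosen with earlier results of these data known. The rule was applied to deposited FPKM. Estimated counts were rounded and tested with edgeR 4.0.16 (TMM, quasi-likelihood, 6 libraries per contrast, mean FPKM above 1 at either temperature, adjusted p under 0.05 and over 2-fold), tested on simulated data first. DESeq2 1.42.0, other scalings, filters and limits, and each library left out were the alternatives. Counts of the other shapes under these were added after seeing the data. Members were named if among the 10 highest at 30 °C, the 10 of largest smaller ratio (0.1 FPKM added), up to 5 each way among those called at 40 over 20 °C, the 3 nearest each limit, or in runs of 3 neighbouring genes. Replicates differed by 7.33 to 22.24 times counting noise (chi-square per degree of freedom), so none was a duplicate.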

Additional observations from a re-analysis of the deposited data

How the results depend on the processing

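The 252 members became 146 with TMM-scaled FPKM (144 shared), 471 with a level of at least 1 FPKM, 108 with at least 10 FPKM, 65 with both ratios at least 2 and 18 with whole counts only (within 0.001), and 220 to 1129 with 1 library left out, the highest without 30 °C replicate 1. With TPM there were 267 (240 shared), and 220 genes by summed FPKM (211 shared). At 40 over 20 °C, 5583 transcripts passed, 8587 without the 2-fold limit and 4405 to 5768 with 1 library left out; 62.4% of the calls were higher, and 48.9% with library size alone. The 6 members called became 0 to 6 with 1 library left out, 0 without 20 °C replicate 3. The replicate block gave 1 of the 6, and 11 rather than 28 members at 30 over 40 °C. At 30 over 20 °C, 37 members passed, and 60 with DESeq2. For 32 named members tested at 40 over 20 °C, 299 of 350 alternatives left the call or its absence as it was and moved the value little. A call was lost in 36, gained in 1 and turned round in 0, and 14 moved the value. All 36 losses fell on the 6 members called, since the other named members had no call to lose. Most of the 299 were for members that were not called, so they do not show the calls to be stable. No clear pairing of plants by replicate number was seen: deviations of same-numbered plants correlated at -0.07 to 0.069 for 40 and 20 °C, 0.021 to 0.13 for 30 and 20 °C and -0.116 to 0.063 for 30 and 40 °C. Plants of different numbers were not correlated for comparison, so pairing is not excluded. The causes of these shifts were not tested. For the 12 members under 50 fragments at 30 °C, counting error limits the ratios.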

Other observations

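On chromosome 2D, 2 members lay on either side of a gene with a strong response to heat. TraesCS2D02G033200.2 had 18.2, 18.0 and 15.8 FPKM at 20 °C, 321, 299 and 300.2 FPKM at 30 °C, and 686, 631 and 587 FPKM at 40 °C, with a log2 fold change, 40 over 20 °C, of 5.33 (SE 0.178, edgeR adjusted p = 3.0e-06). Its neighbours did not keep that order. TraesCS2D02G033100.1 had 19.0, 27.5 and 24.7 FPKM at 20 °C, 62.8, 40.8 and 35.5 FPKM at 30 °C, and 31.9, 18.6 and 16.8 FPKM at 40 °C, and TraesCS2D02G033300.1 had 2.41, 4.93 and 3.20 FPKM at 20 °C, 10.8, 5.57 and 6.85 FPKM at 30 °C, and 3.79, 2.66 and 0.75 FPKM at 40 °C. The plants of each member at 20 and 40 °C overlapped. TraesCS2D02G033300.1 rested on only 13, 30 and 10 fragments summed over the plants at 20, 30 and 40 °C, so counting error limits its values. Strand and overlap of the 3 genes were not checked, and this stretch was chosen after its values were seen.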
